A study of Arabidopsis thaliana with 15 samples.

Results

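MYB3R1-only sites are places in the Arabidopsis thaliana genome where all 3 chromatin immunoprecipitation and sequencing (ChIP-seq) libraries of GFP-MYB3R1 had a peak and no library of GFP-MYB3R4 or GFP-MYB3R4mNES did. They were chosen by measured values: a peak of MYB3R1 replicate 1 on the nuclear chromosomes was kept if it overlapped, by 1 bp or more, a peak of MYB3R1 replicates 2 and 3 and no peak of the other 5 lists. There were 4951 such sites among 11478 nuclear peaks of MYB3R1 replicate 1 (43.1%), and among 42664 nuclear peaks in the 8 lists together. Because peak calls chose them, their fold enrichment, rank and width are given as a description with no test, and only their position against genes was compared with other sites.

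The chromatin came from dissected inflorescence meristems of plants in the Col0 background grown in long days, and was precipitated with the anti-GFP antibody ab290. The lines were pMYB3R1::GFP-MYB3R1 (3 ChIP libraries), pMYB3R4::GFP-MYB3R4 (3) and pMYB3R4::GFP-MYB3R4mNES (2), so each tagged protein was under the promoter named for its own gene, and the labels name no mutation in those genes. The labels do not spell out mNES, and NES is the usual short form of nuclear export signal. The samples include 7 input libraries and no ChIP from plants without GFP, and nothing in the labels ties replicates to separate plants or tells which libraries a company prepared by another method.

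MYB3R proteins are transcription factors with 3 MYB repeats that bind the mitosis-specific activator element in promoters of genes for mitosis and cytokinesis. In Arabidopsis, MYB3R4 is known mainly as an activator of these genes, while MYB3R1 acts both as an activator and, with MYB3R3 and MYB3R5, as a repressor outside the G2 and M phases. MYB3R repressors have been found in complexes with retinoblastoma-related protein, E2F factors and other relatives of the animal DREAM complex. The inflorescence meristem holds the dividing cells that give rise to flowers.

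The MYB3R1 lists held 11478, 19655 and 7089 nuclear peaks in replicates 1, 2 and 3, while the MYB3R4 lists held 786, 2717 and 456 and the MYB3R4mNES lists 227 and 256. Read depth was unknown, so absence from a MYB3R4 list means that no peak was called there in those libraries. Among the 6445 peaks of replicate 1 found in all 3 MYB3R1 lists, 1494 were set aside by the rule: 1485 had a peak in at least 1 MYB3R4 list and 9 in a MYB3R4mNES list alone. MYB3R4 replicate 2, the longest of those lists, was the sole reason for 1163 of them, and without it the rule gave 6114 sites. MYB3R1 replicate 3, the shortest MYB3R1 list and the one whose file name follows another style than replicates 1 and 2, set the other limit. Of the replicate 1 peaks, 11395 overlapped a replicate 2 peak but 6471 a replicate 3 peak, and replicates 1 and 2 without replicate 3 gave 9157 sites. The peaks listed for MYB3R4mNES replicate 1 carry the name of the MYB3R4 replicate 3 file; no interval was identical between both lists, 200 of the 227 peaks overlapped, and leaving out either list gave 4953 or 4966 sites.

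At the edge of the rule, the nearest neighbours were separated by few bases. The member nearest to a peak of another list, at AT5G65860 (chr5:26348797-26349644), was 5 bp away from it. The members next in order, at AT3G20340 and at SLP2 (AT1G18480), lay 24 and 27 bp away. On the other side, peaks at FLA18 (AT3G11700) and AT3G14870 and inside ACA4 (AT2G41560) were left out for overlaps of 5, 16 and 19 bp, each with a peak of MYB3R4 replicate 2. Most members were far from such an edge: the median gap to the nearest MYB3R4 or MYB3R4mNES peak was 13126 bp, and 280 members (5.66%) had one within 1000 bp. At 166 members (3.35%), the overlapping peak of MYB3R1 replicate 2 or 3 was broad enough to reach a MYB3R4 or MYB3R4mNES peak by itself, which the rule does not consider. The 1 member ranked first in replicate 3, with a fold enrichment of 18.4 there, is of this kind.

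Fold enrichment at members was moderate and ordered in part alike in the 3 libraries. The fold is the authors' ratio of ChIP to input background at a peak, and it is compared here only within a list. Its median over members was 3.42 in replicate 1, 3.96 in replicate 2 and 2.23 in replicate 3, and its range in replicate 1 was 1.63 to 15.1. As percentiles within each list (100 being the strongest peak), the medians were 64.7, 80.8 and 51.5. Across the 4951 sites, the folds of replicates 1 and 2 had Pearson's r = 0.83 and Spearman's rho = 0.76. The values were 0.77 and 0.62 for replicates 1 and 3, and 0.76 and 0.67 for replicates 2 and 3. These are descriptions across sites of the same 3 libraries, which share the antibody and the tissue.

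With the replicate 1 list cut into 10 equal parts by fold, members were the largest class in each of the 5 strongest, with a lower share at the very top. Of the strongest part, 52.2% were members and 46.9% were sites shared with a MYB3R4 list. The share of members was 66.4% in the second part and 64.3% in the third, and went down to 18.7% in the last. In that last part, 80.8% of the peaks were ones not found in all 3 MYB3R1 lists and 6 peaks were shared sites. Among the 101 strongest peaks of replicate 1 (ties included), 21 were members, and the best member ranked 35. Sites shared with all 3 MYB3R4 lists, 141 in number, had higher folds in each MYB3R1 library, with a median of 10.5 in replicate 1. At the low end, the member with the lowest median percentile lay inside AT4G05150, with folds of 2.01, 3.15 and 1.49 in replicates 1, 2 and 3. That member was near the bottom of 2 lists and above the middle of the replicate 2 list. The next lowest was an intergenic site on chromosome 5 with folds of 2.02, 2.36 and 1.65.

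**Figure D1:**
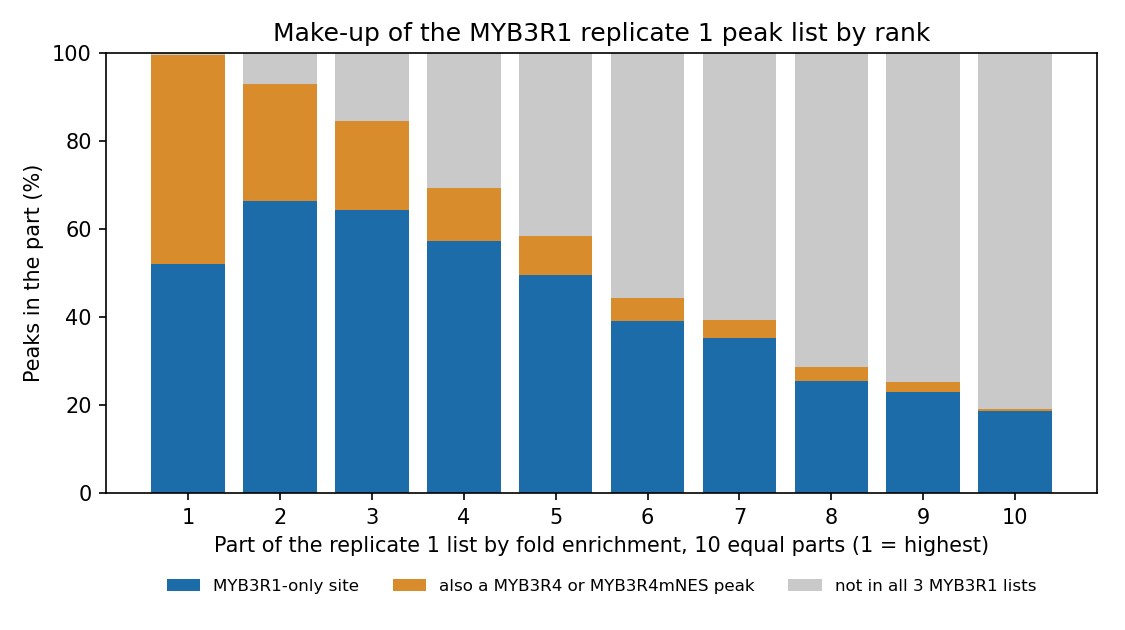
Make-up of the MYB3R1 replicate 1 peak list in 10 equal parts by fold enrichment (x axis, 1 being the highest); the y axis gives the percent of peaks in each part that were MYB3R1-only sites, also had a MYB3R4 or MYB3R4mNES peak, or were not in all 3 MYB3R1 lists. MYB3R1-only sites were 52.2% of the first part, 66.4% of the second and 18.7% of the last.

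The 12 members with the highest median percentile over the 3 lists are described first. All 12 had their summit in a gene-end window, that is from 1000 bp outside to 200 bp inside either end of a protein-coding gene. The reference gave no strand, so starts and ends of genes were not told apart.

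The first site, at AT5G55520 (chr5:22490901-22491707), had folds of 15.1, 10.4 and 7.88 in replicates 1, 2 and 3, with its summit 15 bp outside the gene. It also lay closest of the 12 to a peak of the other proteins, 364 bp away. The second (chr2:11036564-11037365; folds 14.0, 10.2 and 7.31) had its summit 341 bp inside AUR2 (AT2G25880), which encodes an Aurora kinase of mitosis, and within the window of its neighbour AT2G25890. By the window rule AUR2 itself counts as a gene with no MYB3R1 summit, although the peak is inside it. The third lay between PSAT1 (AT1G04010), a sterol acyltransferase gene, and BARD1 (AT1G04020), a DNA repair and meristem gene (chr1:1035928-1036916; folds 13.9, 10.9 and 9.27).

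The site at TUA4 (AT1G04820), an alpha-tubulin gene, and AT1G04830 (chr1:1358067-1358997) had folds of 13.7, 10.0 and 7.29. That at AT1G05440 (chr1:1597348-1598331) had folds of 13.6, 9.65 and 8.36. At CYCA1;1 (AT1G44110), an A-type cyclin gene (chr1:16777008-16777921), the folds were 13.6, 10.8 and 8.32, and no MYB3R4 or MYB3R4mNES peak was called within 22236 bp. The next site lay between PRL (AT4G02060), a subunit gene of the MCM replicative helicase, and MSH6 (AT4G02070), a mismatch repair gene (chr4:905338-906394). Its folds were 13.4, 9.39 and 9.79, and its summit was 7 bp from a gene end.

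The remaining 5 of the 12 ranked from 54 to 73 in replicate 1. The site shared by AT3G03130 and AT3G03140 (chr3:723300-724129) had folds of 13.6, 10.4 and 8.75. TOPII (AT3G23890), the gene of topoisomerase II (chr3:8624247-8625050), had 13.4, 9.90 and 6.29. The site nearest to CSLD6 (AT1G32180), a cellulose synthase-like gene, was the most distant of the 12 from a gene, at 955 bp (chr1:11585028-11585834), and had folds of 13.2, 10.3 and 7.01. AT5G37247 (chr5:14744303-14745311) had folds of 12.5, 9.35 and 5.98 at 379 bp. IMPA-6 (AT1G02690), an importin alpha gene (chr1:583747-584576), had folds of 12.3, 10.1 and 7.39. IMPA-6, and 1 of the genes at the TUA4 site, also had a MYB3R4 or MYB3R4mNES summit at another place in their windows. Within each list the 12 sites held ranks of 35 to 73 in replicate 1, 30 to 95 in replicate 2 and 24 to 126 in replicate 3. Summits in replicates 2 and 3 lay within 87 bp of that of replicate 1 at every one of the 12.

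**Figure D2:**
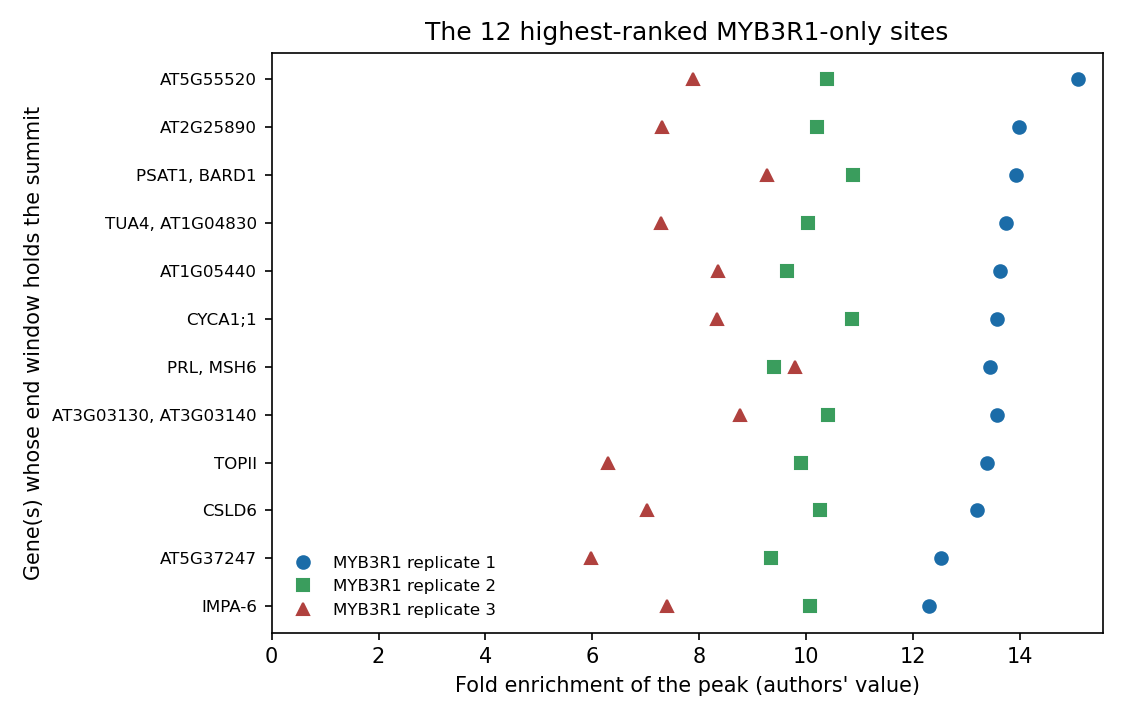
Fold enrichment (x axis, the authors' ratio) of the 12 MYB3R1-only sites with the highest median percentile over the 3 MYB3R1 lists; each row is a site named by the gene or genes whose end window holds its summit, and each marker is 1 MYB3R1 library. Replicate 1 values run from 12.3 to 15.1, those of replicate 2 from 9.35 to 10.9 and those of replicate 3 from 5.98 to 9.79.

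Members lay close to the ends of genes. In replicates 1, 2 and 3, 87.9%, 88.9% and 85.9% of member summits were in a gene-end window, or 87.6% ± 1.52 (SD, n = 3 libraries). In replicate 1 that left 395 summits in gene bodies and 203 between genes. Among all nuclear peaks of the same lists the shares were 81.5%, 80.4% and 82.2%, and the windows cover 42.1% of the bases of the nuclear genome. Most of the contrast with the genome was therefore common to MYB3R1 peaks as a whole. The median distance from a summit to the nearest gene end was 93, 86 and 109 bp in the 3 libraries, and 51.7% ± 3.78 (SD, n = 3) of summits lay within 100 bp of an end, a zone that covers 8.47% of the genome. In replicate 1 the share within 100 bp was 52.8% of members and 43.0% of all nuclear peaks. With the genes shifted by 2000 to 20000 bp as a check of the coordinates, the share of members within 100 bp in replicate 1 lay between 9.76% and 10.4%.

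Compared with sites shared with at least 1 MYB3R4 list, members were more often at gene ends. In the same libraries 78.2% ± 1.82 (SD, n = 3) of shared summits were in a window, and the difference was 8.93, 9.39 and 9.79 percentage points in replicates 1, 2 and 3 (mean 9.37). The exact sign-flip permutation test, two-sided, gave p = 0.25, the smallest that 3 libraries allow. The same sites were measured in each library, with summits close together, so the equal sign in 3 of 3 libraries is not independent evidence and only the size of the difference is reported. It held in each of 4 equal parts of the replicate 1 list by fold. In the strongest part 89.9% of 1731 members were in a window, against 80.2% of 967 shared sites. In the weakest the shares were 85.1% of 603 members and 69.4% of only 49 shared sites. The difference depended on MYB3R4 replicate 2, without which it was 3.39 points, and against the 141 sites shared with all 3 MYB3R4 lists its mean was 0.08 points. Of those, 87.5% ± 0.409 (SD, n = 3) were in a window, and the differences of -0.02, 1.62 and -1.35 points had mixed signs (exact sign-flip p = 1).

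Both comparisons gave the same direction for the spaces where 2 genes meet. Summits of members lay in the windows of 2 or more genes at once in 51.1% ± 1.68 (SD, n = 3) of cases, against 29.3% ± 1.11 at sites shared with at least 1 MYB3R4 list and 40.0% ± 0.409 at those shared with all 3. Of all nuclear peaks of replicate 1, 40.6% lay in such overlapping windows (members 51.7%), which cover 12.2% of the genome. The difference was 21.8 points from the former and 11.1 points from the latter (exact sign-flip p = 0.25 for both). Within 100 bp of a gene end, shares were 29.1% ± 0.604 and 39.7% ± 0.709 at those shared sites (SD, n = 3), 22.6 and 11.99 points below members (exact sign-flip p = 0.25 for both). In replicate 1 the median distance was 93 bp for members, 230 bp for sites shared with at least 1 MYB3R4 list and 136 bp for those shared with all 3. A summit in the windows of neighbouring genes was assigned to each of them, and which of them a peak belongs to was not tested.

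**Figure D3:**
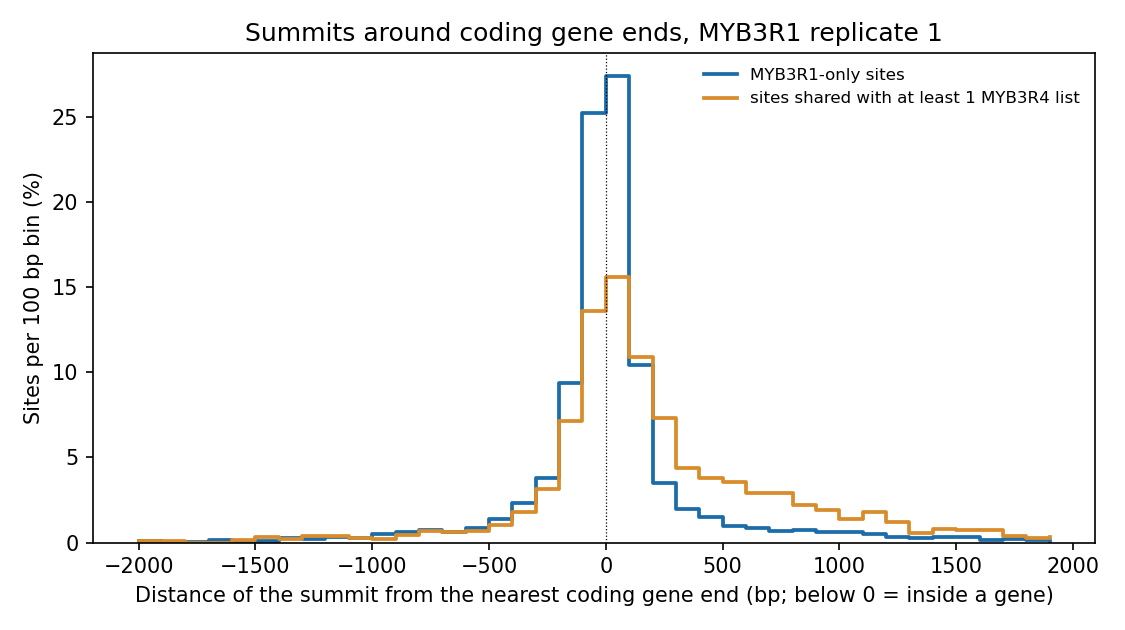
Distance of summits in MYB3R1 replicate 1 from the nearest end of a protein-coding gene (x axis, bp, below 0 inside a gene), as percent of sites per 100 bp bin (y axis) for the 4951 MYB3R1-only sites and the 1485 sites shared with at least 1 MYB3R4 list. In the bins on either side of the gene end lie 25.2% and 27.4% of MYB3R1-only sites, and the line of the shared sites is lower there and higher farther outside.

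The 203 members outside both windows and genes lay 1005 to 10516 bp from the nearest coding gene end, with a median of 1505 bp. Their median fold in replicate 1, 3.54, was close to the 3.42 of members at gene ends and above the 3.13 of those in gene bodies. The 3 farthest were on chromosomes 3, 2 and 3, at 10516, 8792 and 6651 bp. The first of them was weak, with folds of 2.20, 2.50 and 2.08 in replicates 1, 2 and 3. The second (chr2:2858544-2859171; folds 5.92, 4.85 and 2.74) and the third (chr3:11121673-11122300; folds 5.31, 4.84 and 2.52) ranked 652 and 930 in replicate 1.

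The median width of members was 661 bp in replicate 1, 918 bp in replicate 2 and 650 bp in replicate 3. They were thus a little wider than all peaks of those lists, whose medians were 615, 728 and 646 bp, and narrower than sites shared with at least 1 MYB3R4 list, at 941, 1557 and 801 bp. Width bears on the overlaps that the rule asks for, so these values are a description. Widths above 600 and up to 800 bp were the most common (40.9% of members), 45 members had the lowest width of 400 bp, and 541 (10.9%) were wider than 1000 bp, against 43.4% of shared sites. Summits sat near the middle of the peak, at a median of 49.7% of its length. Summits lay close together between libraries, which follows in part from the overlap that the rule asks for. The median distance of the summit from that of replicate 1 was 40 bp in replicate 2 and 66 bp in replicate 3. At 419 members (8.46%) the distance passed 500 bp in at least 1 of them. It was within 100 bp in both at 59.1% of members and 57.4% of sites shared with at least 1 MYB3R4 list. At the 141 sites shared with all 3 MYB3R4 lists that share was 87.9%. The distance passed 500 bp in at least 1 of the libraries at 13.3% of the former shared sites and 1.42% of the latter.

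The widest member, of 2693 bp (chr3:5296539-5299231), covered the ends of UVR3 (AT3G15620), a photolyase gene, AT3G15630 and AT3G15635, with folds of 4.03, 4.94 and 3.25. The next, of 2507 bp, lay at AT2G39650, with folds of 5.11, 4.60 and 2.30. The third, of 2450 bp, lay at SAM1 (AT1G02500), an S-adenosylmethionine synthetase gene, with folds of 4.81, 5.67 and 2.58. At the narrow end were 400 bp peaks at AT3G07460 with AT3G07470, at AT1G07920 with AT1G07930, and at AT4G21445 with AT4G21450. The first pair shows what so narrow a peak can be: its fold was 1.98 in replicate 1 but 5.71 and 3.17 in replicates 2 and 3, whose summits were 879 and 895 bp away.

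At genes, 6460 of 27444 nuclear protein-coding genes (23.5%) had a member summit in a window. Most, 5841, had 1, while 607 had 2 and 12 had 3. Among the 6460 genes, 402 (6.22%) also had a summit of a MYB3R4 or MYB3R4mNES library at another place in their windows, 388 of them one of MYB3R4 replicate 2. A gene with a MYB3R1-only site was therefore not always a gene without MYB3R4. The share of all genes with a MYB3R4 or MYB3R4mNES summit was not counted, so the 6.22% cannot be called high or low. A shared site lay at 242 of the 6460 genes (3.75%), beside 1569 of all genes (5.72%). Of genes with 3 members, TAPX (AT1G77490), a thylakoid ascorbate peroxidase gene, had folds in replicate 1 of 7.45, 3.97 and 2.63 at its 3 sites. AT1G79103 had 4.58, 2.87 and 2.45, and AT2G44140 had 2.75, 2.56 and 2.75. At the lower-ranked sites of AT1G79103, replicates 2 and 3 each had 1 peak spanning both.

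Genes of DNA replication had member sites most often among the 5 gene lists examined. Of 31 S-phase genes 27 (87.1%) had one, of 48 G2/M genes 22 (45.8%), of 20 MYB3R, E2F and DREAM genes 11 (55%), of 19 cytokinin genes 7 (36.8%) and of 20 shoot meristem and flower regulators 3 (15%), beside 23.5% of all genes. The G2/M list differed from the S-phase list in what the other genes had: 20 G2/M genes (41.7%) had a shared site and no member, against 2 S-phase genes (6.45%) and 4.84% of all genes. No MYB3R1 summit was found at 3 G2/M genes and 1 S-phase gene, beside 8982 of all 27444 genes. AUR2 is among those G2/M genes, although a member summit lies inside it, beyond its windows. These counts describe lists that overlap earlier results of the same data, and no test was made on them. Without MYB3R4 replicate 2 they were 25 and 29 for G2/M and S-phase genes, and without MYB3R1 replicate 3, 25 and 27.

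**Figure D4:**
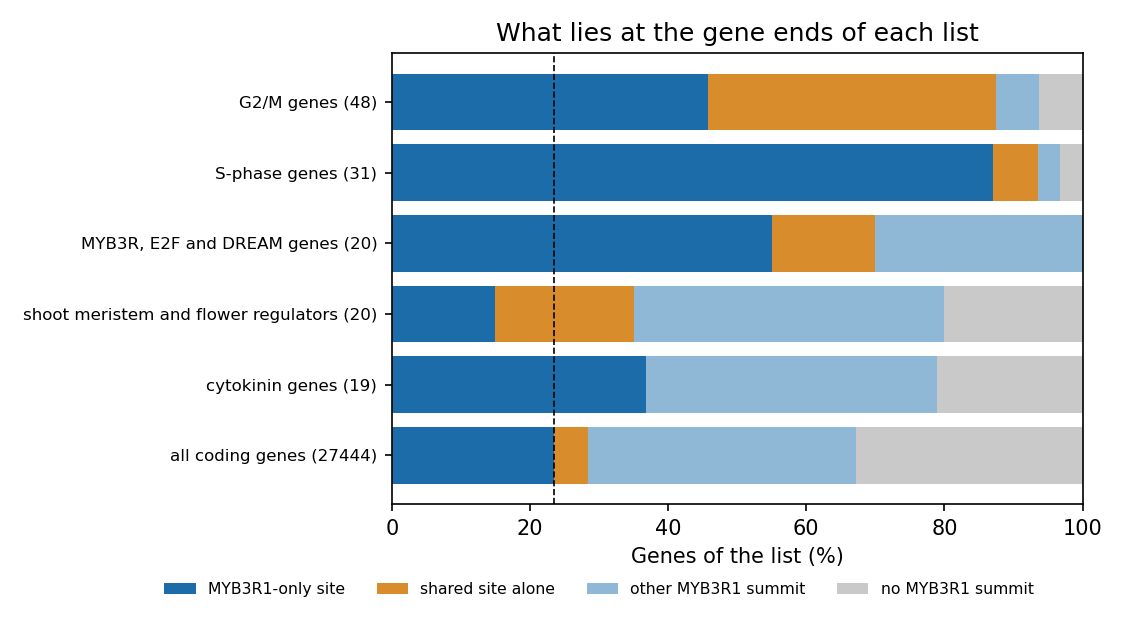
What lies in the gene-end windows of 5 gene lists and of all 27444 nuclear protein-coding genes (rows, number of genes in brackets): a MYB3R1-only site, a shared site without one, another MYB3R1 summit, or none, as percent of the list (x axis). The dashed line is the 23.5% of all genes with a MYB3R1-only site, and the S-phase list reaches 87.1%.

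The replication genes covered origin licensing, the helicase, polymerases and chromatin assembly. After PRL, the strongest was CDT1A (AT2G31270), which loads the helicase onto origins, with folds of 11.3, 8.56 and 9.76 in replicates 1, 2 and 3 and a summit 13 bp inside the gene. Its paralog CDT1B (AT3G54710) had 9.29, 8.47 and 5.96 at a site that is also in the window of PHT1;7 (AT3G54700), a phosphate transporter gene. FAS1 (AT1G65470), a subunit gene of chromatin assembly factor 1, had 8.05, 8.46 and 5.48. MET1 (AT5G49160), the maintenance DNA methyltransferase gene, had 5.74, 6.54 and 5.79, and 1 MYB3R4 library had another summit at this gene. The other subunit genes of the MCM helicase, MCM2 to MCM6, had members as well, with replicate 1 folds of 6.72, 5.92, 4.39, 4.09 and 5.92. So had 6 genes of the origin recognition complex (ORC1A, ORC1B, ORC2, ORC4, ORC5 and ORC6, folds 3.24 to 5.98) and both genes of the sliding clamp, PCNA1 (3.91) and PCNA2 (5.01). The summits at MCM3, MCM4, MCM6, ORC1B, ORC4, ORC6, PCNA1 and PCNA2 were also in the window of a neighbouring gene. The 4 genes without a member were MCM10 and ORC3, which had a shared site through 1 MYB3R4 library, RNR2A, with a summit in 1 MYB3R1 library, and TSO2, a ribonucleotide reductase gene, with none.

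Among the G2/M genes, members lay at cyclins, B-type cyclin-dependent kinases, kinesins and cytokinesis genes. After CYCA1;1, MAP65-4 (AT3G60840), which encodes a microtubule bundling protein, had folds of 10.9, 9.30 and 7.90. Its summit was 3 bp outside the nearest gene end, which may be that of its neighbour AT3G60850. The CDKB2 genes, kinases of the G2 to M transition, were both in the set: CDKB2;1 (AT1G76540) had 8.18, 8.28 and 7.32, and CDKB2;2 (AT1G20930) had 10.99, 9.56 and 6.45. CYCB1;3 (AT3G11520) had 2 member sites, the stronger with folds of 12.5, 7.36 and 7.08. The paralog CYCB1;1 (AT4G37490), a widely used mitotic marker, had 10.4, 8.57 and 6.35. The genes of the kinesin PAKRP1 (AT4G14150), of the APC/C inhibitors UVI4 (AT2G42260) and UVI4-LIKE (AT3G57860), and of the inhibitory kinase WEE1 (AT1G02970) had replicate 1 folds of 9.04, 8.30, 7.91 and 5.13. The summits at MAP65-4, CDKB2;1, CDKB2;2, CYCB1;1, UVI4 and WEE1 were also in the window of a neighbouring gene.

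At 3 of the 22 G2/M genes with a member, MYB3R4 libraries had a summit elsewhere in the windows. HIK (AT1G18370), the gene of a cytokinesis kinesin, and CYCB2;2 (AT4G35620) had one in 3 of 3 MYB3R4 libraries, and their members were weak, with folds of 2.96, 3.91 and 2.44 and of 3.20, 3.30 and 2.29. HTR12 (AT1G01370), the centromeric histone H3 gene, had one in 1 MYB3R4 library and a member with folds of 6.11, 7.06 and 3.99. The member summits at HIK, CYCB2;2 and HTR12 were also in the window of a neighbouring gene. The G2/M genes with a shared site and no member include CDC20.1, CDC20.2, PLE, TPX2 and SYP111, each with a summit in 3 of 3 MYB3R4 libraries. Others had one in fewer: in 1 at AUR1, BUB3.1, CYCB1;4 and CYCB2;3, and in 2 at AT2G28620, BUBR1, EB1C and KINESIN-12B.

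Genes of the regulators themselves were in part members. RBR1 (AT3G12280), the retinoblastoma-related gene, had folds of 8.06, 7.06 and 5.37 in replicates 1, 2 and 3. Its site was also in the window of AT3G12290. MYB3R-3 (AT3G09370), the gene of a MYB3R repressor, had 6.78, 6.26 and 2.82 at a site also in the window of AT3G09360, 187 bp from the nearest gene end. ATE2F2 (AT1G47870) had 5.37, 5.51 and 4.16, and ALY1 (AT5G27610), related to a DREAM subunit of animals, had 4.52, 5.51 and 3.87. TCX2 (AT4G14770), of the family of the DNA-binding DREAM subunit, had 5.37, 9.19 and 3.48, with a summit in its window in 2 of 3 MYB3R1 libraries. MYB3R-4 (AT5G11510), PC-MYB1 (AT4G32730, the gene of MYB3R1) and ALY2 had a shared site instead, and the other 6, among them MYB3R-5, TSO1 and E2F1, had a MYB3R1 summit in 1 or 2 libraries. All 20 genes of this list thus had at least 1 MYB3R1 summit, as had 67.3% of all genes.

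Of the 20 regulators of the meristem and the flower, 3 had members (15%, beside 23.5% of all genes), and 6 had one when either MYB3R1 replicate 3 or MYB3R4 replicate 2 was left out. Another 4, AGL20, AP1, CLV1 and HAM1, had a shared site and no member, each through 1 MYB3R4 library. LFY (AT5G61850), a master regulator of floral identity, had folds of 5.25, 5.46 and 4.03. HP6 (AT1G80100), an inhibitor of cytokinin signalling, and CUC1 (AT3G15170), a boundary gene, had 2.99, 2.92 and 2.13, and 2.81, 4.16 and 1.92. WUS had a summit in 1 MYB3R1 library, and CLV3, STM, CUC2 and TFL1 in none. Of the cytokinin genes, the type-A response regulators ARR15 (AT1G74890), ARR7 (AT1G19050) and RR5 (AT3G48100) had 4.35, 4.91 and 2.41, then 4.35, 3.43 and 1.82, and 3.42, 4.17 and 1.66. The receptor gene HK3 (AT1G27320) had 3.79, 4.09 and 2.13, and RR10 (AT4G31920), a type-B response regulator gene, 3.39, 3.50 and 1.98. At both of these, 1 MYB3R4 library had another summit in the windows, and 3 of the 7 cytokinin genes with a member had a MYB3R4 or MYB3R4mNES summit. The count of this list fell away with stricter calls, to 0 of 19 at a -log10 q of at least 10 in the MYB3R1 lists, where the S-phase and G2/M lists had 23 and 16. The member summits at LFY, CUC1, ARR15, RR5, HK3 and RR10 were also in the window of a neighbouring gene.

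Within the set, the 3 cell cycle lists lay high by fold. The median over genes of the median percentile was 95.8 for G2/M genes with a member, 94.2 for S-phase genes and 88.4 for MYB3R, E2F and DREAM genes, beside 70.5 for all 6460 genes. It was 64.7 for cytokinin genes and 48.5 for the 3 meristem and flower regulators. By library, the median fold at G2/M genes with a member was 6.43, 7.02 and 4.23, at S-phase genes 5.74, 5.97 and 3.38, and at cytokinin genes 3.42, 3.73 and 2.13. The values of the G2/M and S-phase genes are above the medians of all members (3.42, 3.96 and 2.23) in every library, and those of the cytokinin genes are at or below them. The ranges overlapped: CDKB1;2 (AT2G38620), the lowest of the G2/M genes, had folds of 2.78, 3.76 and 2.10.

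**Figure D5:**
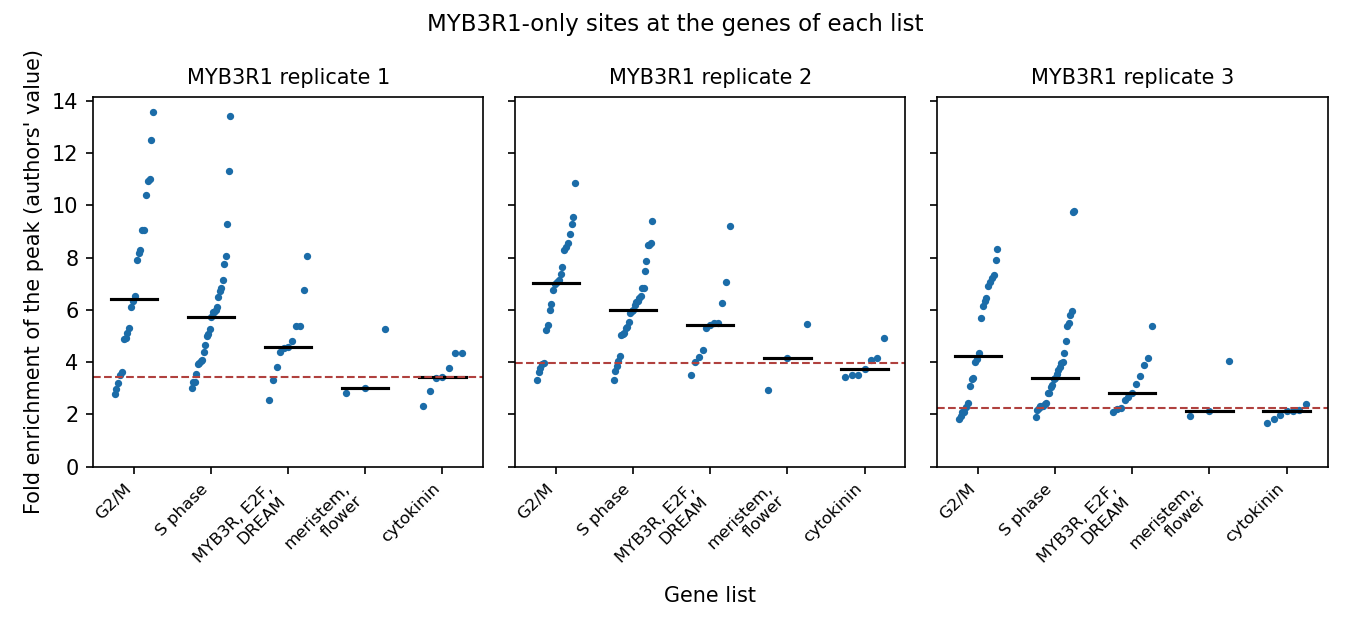
Fold enrichment (y axis, the authors' ratio) at the strongest MYB3R1-only site of each listed gene, by gene list (x axis) in the 3 MYB3R1 libraries; each point is a gene, black bars are list medians and the dashed line is the median of all 4951 sites. In replicate 1 the G2/M median is 6.43 and the S-phase median 5.74, against 3.42 for all sites.

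Across chromosomes 1 to 5 there were 1319, 683, 1075, 748 and 1126 members. Per 1000 protein-coding genes that was 184, 158, 197, 179 and 178, so chromosome 2 had the fewest and chromosome 3 the most. In windows of 1 Mb the count ran from 0 to 105, with a median of 39, and 8 of 121 windows had no member.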

How the data were processed

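Each of the 8 ChIP libraries had 1 deposited list of peaks, called against input with an extension of reads to 400 bp, going by the authors' file names. GFP-MYB3R4 had 3 ChIP libraries but 2 input libraries, labelled replicates 1 and 2, so MYB3R4 replicate 3 had no input of its own number. The submitters' processing notes name Bowtie2, Trimmomatic, FastQC, Picard and the build TAIR10. Which program called the peaks is not given in the sources used. The deposited columns held the authors' fold (a ratio over input background), -log10 p-value and -log10 q-value per peak, a score and the summit's offset. Replicates were called separately. Input samples were not analysed here, and no read counts were used, so depth is unknown and no interval is given.

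Peaks on organelle genomes were left out. Members were found by overlap of 1 bp or more (Python 3.11.15, pandas 2.3.3, NumPy 2.4.6). A peak's percentile is its rank by fold within its list. Genes and symbols came from a RefSeq table of the assembly TAIR10.1 (27444 nuclear protein-coding genes, no strand); the windows are those of the report. Where several peaks of a list overlapped a site, the one with the highest fold was taken. The only test was the exact sign-flip permutation test over the 3 MYB3R1 libraries, checked on simulated data. With 3 differences of equal sign this exact sign-flip test gives p = 0.25 whatever their spread. The spread between these samples may be technical. Sites were named by a rule: the 12 highest by median percentile, up to 5 per gene list, and the extremes of width, rank, distance and gap; further list genes were chosen after their values were seen. The members and lists were chosen with earlier results of these data known. Planned motif counts and promoter sequences were not made, since no genome sequence was used here.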

Additional observations from a re-analysis of the deposited data

How the results depend on the processing

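The gene-end difference between members and sites shared with at least 1 MYB3R4 list kept its direction under all alternatives run, from 3.39 to 17.2 points. The exact test cannot pass a threshold with 3 libraries. At a -log10 q of at least 10 in the MYB3R1 lists there were 1674 sites at 2467 genes, a median percentile of 85.1, a gene-end share of 92.2%, and 1 meristem and 0 cytokinin genes. Sites taken from MYB3R1 replicate 2 had a gene-end share of 89.6%, a median width of 895 bp and a median percentile of 80.3, and those from replicate 3 a share of 85.8%. The gene-end share was 90.5% with a reciprocal overlap of 50%, 81.3% and 94.5% with windows of 500 and 2000 bp, and 94.4% with any overlap of peak and window counted. Keeping sites with summits within 100 bp in the 3 lists, an alternative chosen after seeing the data, gave 2924 sites, 4106 genes, a share of 90.2%, 7 MYB3R, E2F and DREAM genes and 4 cytokinin genes. Leaving out sites whose replicate 2 or 3 peak reaches a MYB3R4 or MYB3R4mNES peak, chosen likewise, gave 4785 sites and a difference of 9.96 points. The cause of these moves was not tested, but stricter calls and fewer lists change the number of peaks by construction.

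With each library left out in turn, there were 4951 to 9157 sites at 6460 to 10360 genes, with gene-end shares of 83.5% to 89.3%, differences of 3.39 to 10.6 points, median widths of 586 to 876 bp and median percentiles of 45.9 to 78.1. The lists had 22 to 25 G2/M, 27 to 29 S-phase, 11 to 14 MYB3R, E2F and DREAM, 3 to 6 meristem and 7 to 10 cytokinin genes. MYB3R1 replicate 3 gave the most sites and genes, and MYB3R4 replicate 2 the smallest difference, when left out. Without MYB3R1 replicate 1 the sites were taken from replicate 2. The highest share, width and percentile (89.3%, 876 bp and 78.1) are therefore values of the replicate 2 list. No paired analysis was possible because no test compares the groups of libraries that share replicate numbers; the test used pairs site classes within each MYB3R1 library. The planned motif share was not run. Depth is unknown, so whether members are free of MYB3R4 cannot be told apart from MYB3R4 peaks too weak to be called.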

Other observations

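Gene families by symbol showed where else members lay. Among 98 groups of at least 15 genes whose symbols start with the same letters (which can join unrelated genes), the highest share with a member was in the EIF group of translation initiation factors, 12 of 21 (57.1%), beside 23.5% of all genes. The RAD group, of DNA repair and ubiquitin receptor genes, had 8 of 15 (53.3%) and the RPL group of ribosomal proteins 12 of 23 (52.2%). EIF4B2 (AT1G13020) had folds of 5.62, 4.99 and 2.77 in MYB3R1 replicates 1, 2 and 3, and EIF4A1 (AT3G13920) 4.64, 5.14 and 2.99. RAD5 (AT5G22750) had 5.07, 5.32 and 3.51, and RPL23AA (AT2G39460) 3.97, 4.09 and 2.08. Each of these summits was also in the window of a neighbour: AT1G13030, AT3G13930, AT5G22760 and MTP11 (AT2G39450), in that order. RPL12-B and RPL12-C both counted through the same summit. At the other end, none of 15 SWEET, 20 TPS and 27 SCRL genes had a member, nor had more than 1 of 23 EXPA, 2 of 44 UMAMIT and 4 of 81 LCR genes. The CYP group of cytochrome P450 and other genes had 24 of 229 (10.5%) and the WRKY group 7 of 67. One WRKY gene was among the strong sites: WRKY47 (AT4G01720) had folds of 11.8, 9.72 and 5.38, at a summit also in the window of AT4G01730. Genes with a symbol had a member in 27.0% of cases and those named by locus tag alone in 21.4%. These groups were chosen after the values were seen and were not tested.

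Noncoding genes within 500 bp of the summit were about as common at members as at all replicate 1 peaks for 3 classes: tRNA genes at 93 members (1.88%, against 1.59% of all peaks), miRNA genes (0.343% against 0.348%) and lncRNA genes (7.74% against 7.75%). At sites shared with at least 1 MYB3R4 list these 3 classes had 0.875%, 0.135% and 8.28%, in that order. A snoRNA gene lay there at 53 members (1.07%), against 0.706% of all replicate 1 peaks and 2 of the 1485 sites shared with at least 1 MYB3R4 list. For snRNA genes the counts were smaller: 19 members (0.384%), against 0.227% of all replicate 1 peaks and 2 of those shared sites. Without ChIP from plants that lack GFP, the part of signal common to highly transcribed genes in these results was not tested.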
